A study of Ovis aries and Capra hircus and Bos taurus with 26 samples.

Results

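Chromosome 15 of cattle, sheep and goats is the counterpart of most of human chromosome 11. It was examined here through the intervals enriched for 2 histone marks in liver. H3K27ac is an acetylation found at active promoters and enhancers, and H3K4me3 is a methylation found at promoters. All intervals on the sequence numbered 15 in each assembly were taken, without regard to their strength. They numbered 17875 peaks, 10561 of H3K27ac and 7314 of H3K4me3, out of 616400 peaks in all lists and 566281 on the autosomes (3.16% of the latter). They were called from ChIP-seq, the sequencing of DNA that antibodies to a histone mark pull down, on frozen liver of 9 adult, healthy animals, namely 3 Holstein cattle, 3 Texel sheep and 3 Yunnan black goats, with no treatment. H3K27ac was available in 8 animals (cattle B and C, and animals A, B and C of sheep and goats) and H3K4me3 in all 9. The coordinates are those of ARS-UCD1.2 (cattle), Oar_rambouillet_v1.0 (sheep) and ARS1 (goats). Whole liver holds other cells beside hepatocytes, and the lists cannot tell which cells carried a mark. No gene of the liver or of another tissue could be placed on the peaks, so the labelled tissue was not checked against marker genes.

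This chromosome carries large clusters of olfactory receptor genes. They code for the odorant receptors of the nose, and each sensory neuron expresses 1 of them while most other tissues keep the clusters silent. It also carries the β-globin genes, which serve red blood cells, and a small cluster of apolipoprotein genes that the liver uses to build and clear lipoproteins. APOA1 is the main protein of high-density lipoprotein, APOC3 slows the clearance of triglycerides, APOA5 favours it, and APOA4 is made mostly in the intestine. Gene-rich neighbourhoods, gene-poor stretches and clusters of tissue-restricted genes therefore alternate along a single chromosome.

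A gene table of another sheep assembly (ARS-UI_Ramb_v3.0) was used for names and gene order, without coordinates. It listed 932 protein-coding genes on chromosome 15. Of these, 421 (45.2%) had a LOC symbol, the placeholder for a gene without an assigned name, against 21.9% on the other chromosomes. The table has 0 symbols of the olfactory receptor family, and it gives no descriptions, so it does not show which LOC genes are receptors. In 6 places at least 15 LOC genes followed each other without a named gene between them, with 266 genes in all. The longest such run had 98 genes between PTPRJ and LRRC55. Another had 70 genes between HBB, the adult β-globin gene, and TRIM68, and another had 42 genes between C15H11orf42 and TRIM34. The apolipoprotein genes stood together in the order APOA5, APOA4, APOC3 and APOA1, between ZPR1 and SIK3, with 1 LOC gene between APOC3 and APOA1. Of 30 genes looked up for their roles in liver, blood or all cells, 26 were in the table. Among them were HPX (haemopexin, which binds free haem), F2 (prothrombin), SERPING1 (the C1 inhibitor), CAT (catalase) and ACAT1 (a mitochondrial thiolase). The table belongs to another build than the peaks, so these genes are neighbours by name and none is assigned a peak.

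The first comparison asked whether the chromosome carried fewer peaks than the rest of the genome. Its length was taken up to the end of the last peak of any library, at 84957332 for cattle, 90316256 for sheep and 81904276 for goats. H3K4me3 was sparser on chromosome 15 than on the other autosomes in all 9 libraries. The cattle libraries A, B and C had 9.78, 8.62 and 9.48 peaks per Mb, against 10.6, 9.53 and 10.2 on the other autosomes. The sheep libraries had 9.10, 9.52 and 9.52 peaks per Mb, against 10.2, 11.2 and 10.9. The goat libraries had 8.80, 10.2 and 10.4 peaks per Mb, against 9.56, 10.97 and 11.2. In cattle and goats the ranges of the 2 sets of values overlap between animals, while within each animal the chromosome lay lower. The log2 ratio averaged -0.14 over the species, which is 0.905 times the density elsewhere (p = 0.00391, the smallest that its 512 arrangements allow, two-sided exact sign-flip permutation test over animals, adjusted p = 0.0221 by Benjamini-Hochberg over 17 tests).

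H3K27ac differed less. Cattle B and C had 14.4 and 15.9 peaks per Mb, against 15.5 and 17.2 on the other autosomes. Sheep A, B and C had 13.3, 12.6 and 13.9, against 14.5, 13.5 and 15.1. Goats A, B and C had 16.2, 19.6 and 17.8, against 16.4, 19.8 and 17.7. Chromosome 15 was therefore the sparser in 7 of 8 animals, and goat C was the exception. The log2 ratio averaged -0.08, or 0.949 times (p = 0.0156, adjusted p = 0.0332, the same exact test). Measured over the bins that hold a peak rather than over the whole span, it was -0.04 (adjusted p = 0.288 by the same exact test), and with the whole span it also missed the threshold without cattle B or C, sheep A, B or C, or goat A or B (adjusted p = 0.059 to 0.0729, exact tests).

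A test over animals asks only whether the libraries lean the same way. Animals of a species share 1 genome and, largely, the same regions, and any chromosome departs from the average of the others. Beside the other autosomes chromosome 15 stood near the middle. Counted from the densest, it ranked 18 of 29 in cattle, 16 of 26 in sheep and 17 of 29 in goats for H3K27ac, and 17, 16 and 16 for H3K4me3. In goats H3K4me3 densities ran from 6.42 peaks per Mb on chromosome 12 to 23.4 on chromosome 19, with a median of 10.6, beside 9.78 ± 0.85 (SD, n = 3) on chromosome 15.

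**Figure D1:**
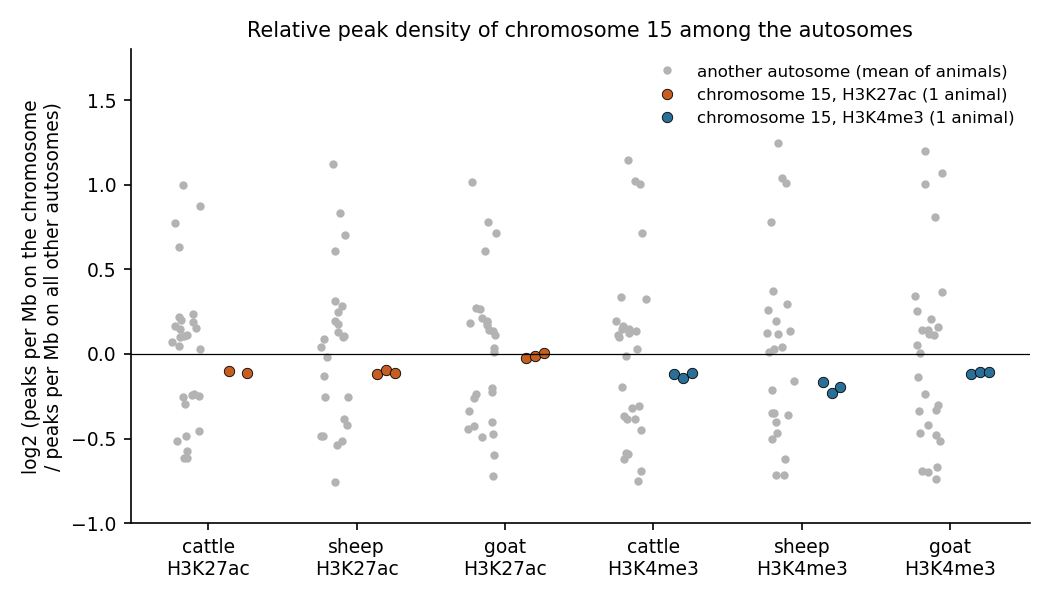
Log2 ratio of peaks per Mb on 1 chromosome to peaks per Mb on all other autosomes (vertical axis), by species and mark. Grey points are the other autosomes (mean of the animals) and coloured points are chromosome 15 in single animals, which lie between -0.23 and 0.01 and inside the spread of the grey points.

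The shortfall was larger for H3K4me3 than for H3K27ac by 0.07 on the log2 scale (p = 0.00075, two-sided exact permutation of mark labels within species over 4000 arrangements, adjusted p = 0.0128). The species also differed in it. For H3K27ac the log2 ratio of the cattle was -0.11 ± 0.01 (SD, n = 2), that of the sheep -0.11 ± 0.01 and that of the goats -0.01 ± 0.02 (SD, n = 3 each; p = 0.025, exact permutation of the F statistic, adjusted p = 0.0472). For H3K4me3 the ratio of the cattle was -0.13 ± 0.02, that of the sheep -0.20 ± 0.03 and that of the goats -0.11 ± 0.01 (SD, n = 3 each; p = 0.00714, the same exact test, adjusted p = 0.0221). Goats stood apart for H3K27ac and sheep for H3K4me3. Among the 20000 strongest peaks of each library these 3 differences no longer passed, with a log2 difference of 0.02 between marks (adjusted p = 0.192, exact test) and adjusted p = 0.169 and 0.298 between species for H3K27ac and H3K4me3 (exact tests). The difference between species was also lost for H3K27ac without cattle B or C, sheep A or C, or any 1 goat (adjusted p = 0.059 to 0.126), and for H3K4me3 without cattle B or any 1 goat (adjusted p = 0.052 to 0.0683, exact tests). It was lost too for H3K27ac over occupied bins (adjusted p = 0.0531) and for H3K4me3 by summed peak length (adjusted p = 0.054, exact tests). Other autosomes also differed between marks, in either direction. In cattle the log2 ratios of H3K27ac and H3K4me3 were 0.11 and -0.19 on chromosome 28, and 0.77 and 1.02 on chromosome 18. Between species, the H3K27ac ratio of chromosome 17 was 0.11 in cattle and -0.20 in goats. These are examples, and chromosome 15 was not ranked among the autosomes for either difference.

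Along the chromosome, the peaks were spread unevenly. The chromosome was divided into bins of 1 Mb, 84 in cattle, 90 in sheep and 81 in goats, and consensus regions (peaks found in at least 2 animals, merged) were counted in each. The richest 10% of bins, 9 in each species, held 31.7%, 32.0% and 31.5% of the H3K4me3 regions of cattle, sheep and goats. Enhancers, here H3K27ac regions without any H3K4me3 overlap, were ranked separately, and the 9 bins richest in them held 33.0%, 31.6% and 31.1% of the enhancers. The median bin had 7 H3K4me3 regions in cattle and sheep and 8 in goats. In each species 6 bins had no consensus region of either mark. These shares and counts were not computed for the other autosomes, so they do not show whether chromosome 15 is more uneven.

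The richest H3K4me3 bin of cattle lay from 29 to 30 Mb and held 48 H3K4me3 regions, of which 13 had no H3K27ac overlap. The single libraries had 42 to 50 H3K4me3 peaks there and 54 to 59 H3K27ac peaks. In sheep it lay from 32 to 33 Mb with 40 regions, and in goats from 5 to 6 Mb with 37. The richest enhancer bins were elsewhere. In cattle the bin from 77 to 78 Mb had 26 enhancers, 23 promoters (H3K27ac regions covered over at least 50% by H3K4me3) and 60 to 61 H3K27ac peaks per library. In sheep the bin from 27 to 28 Mb had 21 enhancers beside 12 promoters. In goats the bins from 18 to 19 Mb and from 50 to 51 Mb had 29 enhancers each, beside 12 and 8 promoters. Of the 3 bins with most enhancers and the 3 with most H3K4me3 regions, cattle shared 1 bin, the one from 77 to 78 Mb, while sheep and goats shared none.

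Some rich and poor bins lay side by side. The largest change between neighbouring bins of cattle was from 48 H3K4me3 regions in the bin from 29 to 30 Mb to 8 in the next. In sheep it was from 31 regions in the bin from 83 to 84 Mb to 2 in the next, and in goats from 1 region in the bin from 4 to 5 Mb to 37 in the next. The cattle bin from 79 to 80 Mb had 0 peaks of either mark in any of the 5 libraries, and the next one had 37 H3K4me3 regions with 34 to 43 peaks per library.

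The animals of a species gave nearly the same profile. Over the bins, the peak numbers of 2 animals for the same mark were correlated with Spearman's rho of 0.97 to 0.98 in 16 pairs of libraries. Between the marks rho was 0.85 to 0.92, both within an animal (8 pairs) and between animals (16 pairs). These values describe neighbouring bins of 1 genome, which share their mappable sequence and gene content, and they carry no test.

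**Figure D2:**
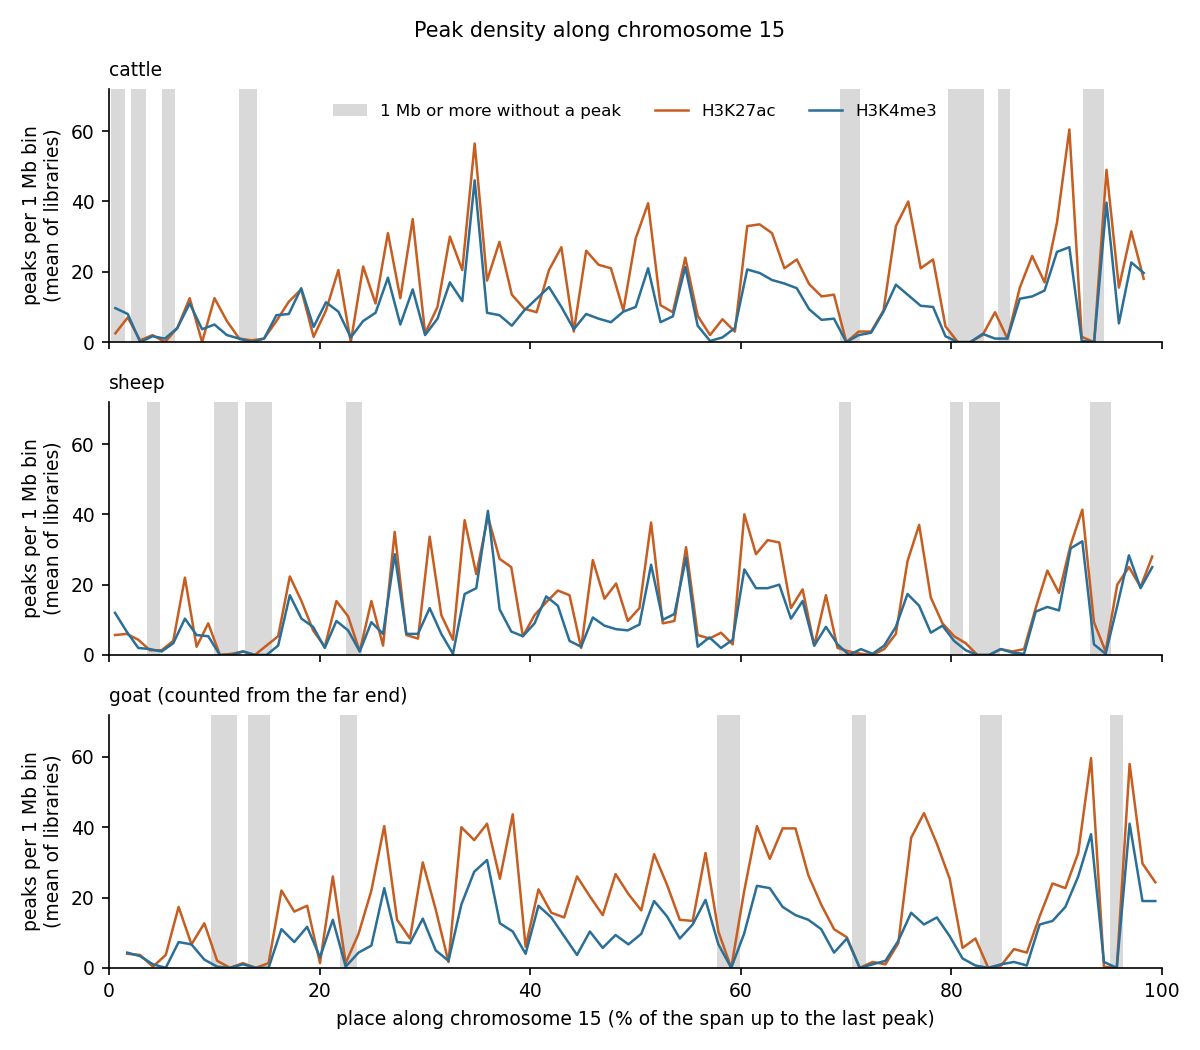
Peaks per 1 Mb bin (vertical axis, mean of the libraries of a mark) by place along chromosome 15, as percent of the span up to the last peak, in 3 species; the goat chromosome is drawn from its far end. Grey bands are stretches of at least 1 Mb without a peak in any library. The 3 profiles share their rich and empty neighbourhoods near 35%, 80% to 85% and 92% to 97% of the span.

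The profiles of the species could be laid over each other, provided that the goat chromosome was read from its other end. With the span divided into 80 parts, the H3K4me3 regions of cattle and sheep were correlated with rho = 0.64 in the same direction and -0.14 with sheep reversed. Sheep and goats gave -0.02 in the same direction and 0.81 with goats reversed. Cattle and goats gave -0.10 and 0.51. For H3K27ac the corresponding pairs were 0.56 and -0.05 for cattle and sheep, 0.08 and 0.77 for sheep and goats, and 0.05 and 0.49 for cattle and goats. The numbering of the goat sequence thus ran opposite to that of the other two. This was not particular to chromosome 15, since between cattle and goats 13 of 29 autosomes had the higher H3K4me3 rho with the goat sequence reversed, and 16 in the same direction. The better rho of chromosome 15 ranked 25 of 29 for both marks between these species, below medians of 0.76 for H3K4me3 and 0.75 for H3K27ac.

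Read in this way, the rich H3K4me3 bins came in the same places. They lay at 34.7% of the span in cattle, 36.0% in sheep and 35.9% in goats from the far end. A further group lay at 91.2% and 94.8% in cattle, at 91.3% and 92.5% in sheep, and at 93.3% and 96.9% in goats from the far end. Enhancer-rich bins corresponded less, lying at 28.8%, 75.9% and 91.2% in cattle, 30.4%, 33.8% and 45.9% in sheep and 38.3%, 65.2% and 77.4% in goats from the far end. The places are shares of a span and not an alignment, so they do not show that the same sequence carried the mark.

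The second question was how much of the chromosome had no peak. A stretch was counted when 0 peaks of either mark from any animal of the species lay in it. Cattle had 25 stretches of at least 0.5 Mb, sheep 26 and goats 18, and 8, 9 and 7 of them reached 1 Mb. The share of the span in stretches of at least 0.5 Mb was 27.7% for cattle, 27.5% for sheep and 21.5% for goats. On the other autosomes they made up 24.5%, 24.4% and 22.4%. Counted from the highest, chromosome 15 ranked 10 of 29, 8 of 26 and 14 of 29. Empty ground was therefore somewhat above the median autosome in cattle and sheep and near it in goats, with no replicate to test a single genome. The longest stretch measured 2.89 Mb for cattle, 2.67 Mb for sheep and 1.99 Mb for goats, and the longest stretch of the other autosomes 4.22, 4.83 and 3.04 Mb.

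The longest stretch of cattle ran from 67699350 to 70587325, or 79.7% to 83.1% of the span. That of sheep ran from 73760066 to 76431582, at 81.7% to 84.6%. In goats the longest ran from 71967027 to 73959125, at 9.70% to 12.1% from the far end, and the next, from 12404232 to 14176216, lay at 82.7% to 84.9%. The latter overlaps the place of the longest stretch of both cattle and sheep. The other leading stretches of cattle were 1.71 Mb from 78588320 to 80296092, at 92.5% to 94.5%, and 1.62 Mb from 58991213 to 60615777, at 69.4% to 71.3%. In sheep they were 2.28 Mb from 11651105 to 13930481, at 12.9% to 15.4%, and 1.84 Mb from 84140787 to 85976218, at 93.2% to 95.2%. The goat stretch from 32846146 to 34591465, 1.75 Mb long and at 57.8% to 59.9% from the far end, overlapped no stretch of at least 1 Mb in the other species.

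By place, 5 of the 8 cattle stretches of at least 1 Mb overlapped 1 of sheep in the same direction, and 2 with sheep reversed. Of the 9 sheep stretches, 6 overlapped 1 of goats read from the far end, against 2 in the same direction. Of the 7 goat stretches, 5 overlapped 1 of sheep and 3 overlapped 1 of cattle when read from the far end. These stretches took 14.1%, 14.9% and 13.1% of the span in cattle, sheep and goats. There were also 8 runs of at least 3 bins with at most 1 H3K4me3 region each. Those of cattle lay from 2 to 5, from 9 to 13 and from 67 to 70 Mb, with 1, 3 and 1 promoters and 0, 4 and 2 enhancers. Those of sheep lay from 9 to 14, from 63 to 66 and from 73 to 76 Mb, and those of goats from 12 to 15 and from 69 to 74 Mb. The sheep and goat runs contained 0 promoters but 1 to 7 enhancers each. The longest had 5 bins, from 9 to 14 Mb in sheep and from 69 to 74 Mb in goats, each with 1 H3K4me3 region and 3 enhancers.

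Bins without a peak were not clearly commoner than elsewhere. Those without an H3K4me3 peak made up 9.13% ± 0.69 of the cattle bins, 11.9% ± 3.6 of the sheep bins and 12.8% ± 2.6 of the goat bins (SD, n = 3 each), against 9.66%, 9.51% and 9.66% on the other autosomes. The mean difference was 1.64 percentage points, positive in 6 of 9 animals (adjusted p = 0.144, exact sign-flip permutation test). For H3K27ac it was -0.55 percentage points, positive in 3 of 8 animals (adjusted p = 0.522, the same exact test), and at a q of at most 1e-05 it turned to 0.19 (adjusted p = 0.883, exact test). The value rested on single animals, at -0.978 without cattle B, -0.115 without cattle C and -0.228 without goat C.

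The third comparison asked how the marks overlapped. On chromosome 15 a larger share of H3K27ac peaks stood without H3K4me3 in each of the 8 animals with both marks. The share was 54.3% and 56.5% in cattle B and C, against 53.1% and 55.5% on the other autosomes. In sheep A, B and C it was 50.5%, 43.8% and 48.5%, against 47.3%, 40.5% and 45.2%. In goats A, B and C it was 52.8%, 53.6% and 51.6%, against 49.8%, 51.1% and 48.3%. The mean difference was 2.41 percentage points (p = 0.00781, the smallest that 256 arrangements allow, two-sided exact sign-flip permutation test, adjusted p = 0.0221). Among the autosomes, counted from the highest, the share ranked in the middle in cattle (15 of 29) and goats (14 of 29) and higher in sheep (8 of 26). With the 20000 strongest peaks of each library the difference was 0.31 percentage points (adjusted p = 0.446, the same exact test), and without cattle B it was 2.37 points (adjusted p = 0.0547, exact test).

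**Figure D3:**
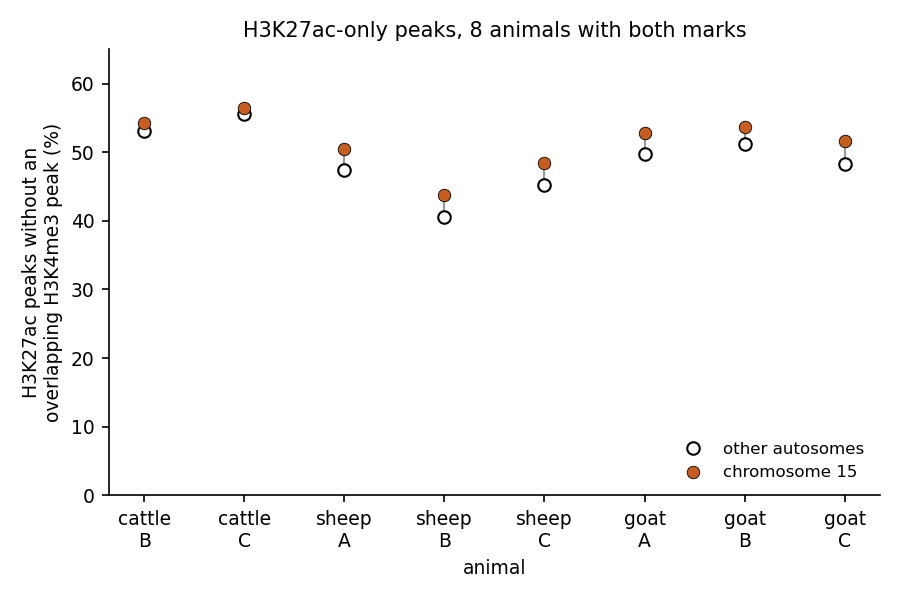
Share of H3K27ac peaks without an overlapping H3K4me3 peak of the same animal (vertical axis, percent), on chromosome 15 (filled) and on the other autosomes (open), in 8 animals. The filled point is the higher in 8 of 8 animals, by 0.98 to 3.32 percentage points.

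In the other direction, the share of H3K4me3 peaks with at least 50% of the length inside an H3K27ac peak of that animal was 50.6% to 67.0% on the chromosome and 48.9% to 66.7% elsewhere. The mean difference was -0.13 percentage points, positive in 5 of 8 animals (adjusted p = 0.847, exact test). With neighbouring peaks less than 500 bp apart joined, it turned to 0.84 points and passed the threshold (adjusted p = 0.0266, the same exact test). H3K27ac peaks without H3K4me3 lay a median of 14.98 to 24.2 kb from the nearest H3K4me3 peak of the animal. On the other autosomes the median was 14.95 to 22.4 kb. The chromosome 15 median was the lower in sheep A and goat B and the higher in the other animals. Between 7.70% and 11.2% of the H3K27ac peaks without H3K4me3 lay more than 100 kb away on chromosome 15. In each of the 8 animals that share was below its share on the other autosomes, which was 9.85% to 15.3%. This share was not tested.

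As consensus regions, cattle had 516 promoters, 443 enhancers and 30 regions of partial overlap among the 989 H3K27ac regions of the chromosome. Sheep had 585, 462 and 27 of 1074, and goats 628, 664 and 31 of 1323. An H3K27ac region had to be found in both of the 2 cattle libraries, but in only 2 of 3 in sheep and goats, so the rule was stricter in cattle. The order of the classes depended on the lists and animals used. Goats had 145 enhancers and 410 promoters among the 20000 strongest peaks of each library, and 421 and 555 at a q of at most 1e-05. Without goat A, B or C they had 507, 460 or 499 enhancers and 601, 547 or 561 promoters. Without cattle A, cattle had 485 enhancers and 476 promoters. Without sheep C, sheep had 301 enhancers. Enhancers made up 44.8%, 43.0% and 50.2% of the regions in cattle, sheep and goats, against 44.2%, 40.3% and 46.7% on the other autosomes. These are single values per species without a test. Promoter regions were wider than enhancers, with medians of 788 to 828 bp against 507 to 512 bp. The median of the highest fold of a region was 5.44 to 5.78 against 3.64 to 3.76. On the other autosomes the widths were 762 to 812 bp against 487 to 512 bp, and the folds 5.33 to 5.78 against 3.64 to 3.86. Of the consensus H3K4me3 regions, 241 of 746 in cattle, 243 of 805 in sheep and 175 of 762 in goats had no H3K27ac overlap.

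The fourth comparison asked how far peaks of the chromosome recurred between animals. A peak was counted as found again when 1 peak of another animal of the species covered at least 50% of its length. Between 2 given animals, 60.8% to 79.0% of the H3K27ac peaks were found again (14 ordered pairs), and 70.8% to 94.6% of the H3K4me3 peaks (18 ordered pairs). With any other animal of the species counted, 71.8% ± 10.1 of the cattle H3K27ac peaks recurred (SD, n = 2, each with a single other animal). The sheep share was 78.2% ± 3.8 and the goat share 80.9% ± 3.3 (SD, n = 3 each). For H3K4me3 the shares were 90.5% ± 5.6, 90.5% ± 2.6 and 91.3% ± 6.1 (SD, n = 3 each). Neither mark differed from the other autosomes past the threshold. The mean difference was -0.33 percentage points for H3K27ac (positive in 4 of 8 animals, adjusted p = 0.522) and -0.02 for H3K4me3 (4 of 9 animals, adjusted p = 0.938, exact sign-flip permutation tests). With the 20000 strongest peaks both signs turned, to 0.22 and 0.082 points, and neither passed.

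After merging the peaks of all animals, 67.6% to 69.0% of the H3K4me3 regions of the chromosome were present in 3 of 3 animals, and 18.4% to 20.4% in 1. For H3K27ac, 44.0% of the sheep and 47.5% of the goat regions were present in 3 of 3 animals, and 36.6% and 33.1% in 1. In cattle 63.4% were present in both animals. Regions seen in every animal were stronger and wider, a property that fold and width themselves help to decide. The highest fold and the merged width are also taken over more peaks where more animals have one. Part of the rise therefore follows from the measure. In sheep H3K27ac regions the median of the highest fold was 3.29 with 1 animal, 3.70 with 2 and 4.98 with 3, and the median width 312, 514 and 841 bp.

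**Figure D4:**
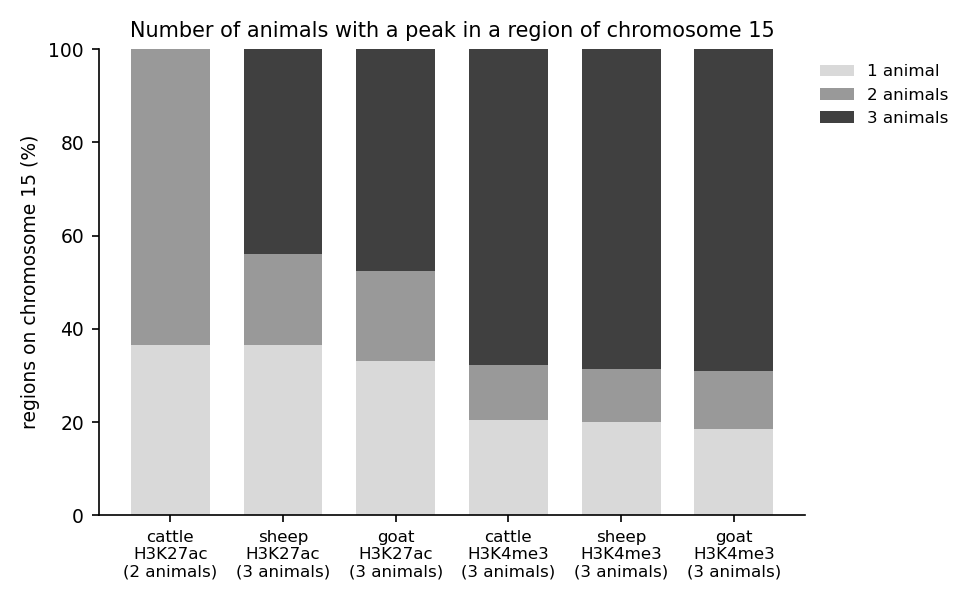
Share of the merged regions of chromosome 15 (vertical axis, percent) with a peak in 1, 2 or 3 animals, by species and mark; cattle H3K27ac rests on 2 animals. Regions with a peak in 3 of 3 animals make up 67.6% to 69.0% for H3K4me3 and 44.0% to 47.5% for H3K27ac. On the other autosomes, not drawn, they make up 67.3% to 69.7% and 45.7% to 49.1%.

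Recurrence was lower in bins that were poor in the other mark. Bins were ranked by the mark that was not being tested, and those at or below the lower quartile (at most 2 H3K4me3 regions, or at most 2 H3K27ac regions in cattle and sheep and 4 in goats) were set against the rest. The H3K4me3-poor bins numbered 22 of 84 in cattle, 26 of 90 in sheep and 22 of 81 in goats, and held just 45 to 63 H3K27ac peaks per library. Of these peaks 58.7% to 80% were found again, against 64.7% to 85.4% in the other bins. The difference ran the same way in 8 of 8 animals, from -17.8 percentage points in sheep C to -1.62 in cattle C, and averaged -8.93 (p = 0.00781, two-sided exact sign-flip permutation test, adjusted p = 0.0221). For H3K4me3 peaks in H3K27ac-poor bins, with 18 to 42 peaks per library, it averaged -6.11 (p = 0.0117, adjusted p = 0.0285, the same exact test). It was negative in 8 of 9 animals, and goat A, with 100% against 97.8%, was the exception on the basis of 18 peaks. With the 20000 strongest peaks of each library neither difference passed, at -13.7 percentage points for H3K27ac (adjusted p = 0.0531) and -5.56 for H3K4me3 (adjusted p = 0.114, exact tests). With 1 animal left out, which also redraws the poor bins, both calls held in the 7 cases that gave a value. The H3K4me3 difference then ran from -9.20 without goat C to -6.69 without goat B. The ranking counts consensus regions, which are those that recurred, and the marks overlap and vary together over the bins. The split is therefore not independent of the mark tested. The test cannot separate the neighbourhood from the kind of peak found in it.

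The peaks of the poor bins differed in other ways too. The median width of the H3K27ac peaks was 365 to 470 bp, against 465 to 524 bp in the other bins, and it was the lower in 7 of 8 libraries. Between 68.9% and 90.0% of them lacked H3K4me3, against 42.8% to 56.2%, which the ranking by H3K4me3 helps to set. The median fold of these H3K27ac peaks was 3.80 to 4.45, against 3.63 to 3.94, and it was below that of the other bins in 1 of 8 libraries. For H3K4me3 the median fold was 5.76 to 7.60 in the poor bins, against 6.66 to 7.41, and it was the lower in 6 of 9 libraries, among them all 3 of cattle. The median width of H3K4me3 peaks was 342.5 to 735 bp there, against 736 to 834 bp, and it was the lower in 9 of 9. The part of width in the recurrence was not tested. The lower recurrence was shared with other chromosomes. With the same split, the H3K27ac difference was negative on 28 of 29 autosomes in cattle, 26 of 26 in sheep and 29 of 29 in goats, with medians of -9.90, -9.46 and -8.18 percentage points, beside -4.83, -11.1 and -10.9 on chromosome 15. The H3K4me3 difference was negative on 27 of 29, 26 of 26 and 25 of 29 autosomes. Its medians were -7.90, -8.10 and -5.62 percentage points, beside -6.84, -6.08 and -5.42 on chromosome 15.

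**Figure D5:**
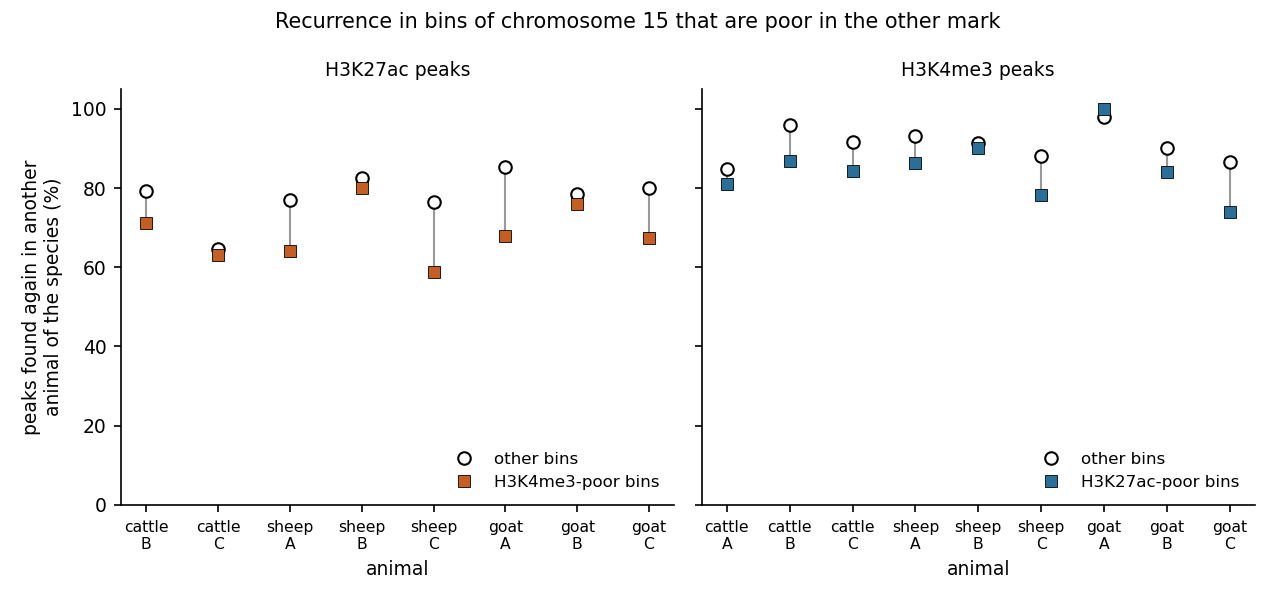
Share of peaks found again in another animal (vertical axis, percent) in bins of chromosome 15 that are poor in the other mark (squares) and in the other bins (circles), for H3K27ac in 8 animals and H3K4me3 in 9. The squares lie below the circles in 8 of 8 animals on the left and in 8 of 9 on the right, goat A being the exception.

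Peak width and strength lay within the range of the other autosomes. H3K4me3 peaks were slightly wider. Their median width measured 758 ± 32 bp for cattle, 772 ± 48 bp for sheep and 809 ± 15 bp for goats (SD, n = 3 each), against 750, 727 and 795 bp elsewhere. The log2 ratio averaged 0.04 and was positive in 9 of 9 animals (p = 0.00391, adjusted p = 0.0221, exact sign-flip permutation test), and the rank by width was 12 of 29, 4 of 26 and 13 of 29. With neighbouring peaks less than 500 bp apart joined, the log2 ratio was 0.01 (adjusted p = 0.846, the same exact test), and with the 20000 strongest peaks it was 0.04 but did not pass (adjusted p = 0.0531, exact test). For H3K27ac width it was 0.01 (adjusted p = 0.522, exact test). The median fold enrichment given by the authors' peak caller did not pass after adjustment for either mark, with log2 ratios of -0.02 for H3K27ac (adjusted p = 0.0664) and 0.01 for H3K4me3 (adjusted p = 0.127, exact tests). The call depended on the list. At a q of at most 1e-05 both marks passed, at -0.02 (adjusted p = 0.0221) and 0.03 (adjusted p = 0.0295, exact tests). With the 20000 strongest peaks H3K4me3 passed at 0.03 (adjusted p = 0.0443, exact test), while H3K27ac turned to 0.00091 (adjusted p = 0.906, exact test). Without cattle C, H3K27ac passed at -0.02 (adjusted p = 0.0365, exact test). Counted from the highest fold, chromosome 15 ranked 11 of 29 in cattle, 16 of 26 in sheep and 25 of 29 in goats for H3K27ac. For H3K4me3 it ranked 10 of 29, 7 of 26 and 15 of 29.

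Ranked by −log10 q within each library, with a region placed by its poorest library, the same cattle regions led both marks. The region from 84897650 to 84898200, 551 bp wide and 59.1 kb before the last peak, had a fold enrichment of 31.2 to 31.6 for H3K27ac, and its H3K4me3 counterpart from 84897633 to 84898209 had 25.2 to 27.5. The region from 41757516 to 41758126 had 26.8 to 27.5 for H3K27ac, and its counterpart from 41757511 to 41758144 had 23.6 to 25.5. The region from 21691802 to 21692392 had 28.6 to 29.2, with 28.1 to 28.6 for the counterpart from 21691794 to 21692395. By −log10 q these H3K27ac regions ranked 1, 2 and 7 to 8 over all peaks of a cattle library, so that the intervals of the marks nearly coincided near the top of the lists. By fold alone other H3K4me3 peaks of the chromosome stood higher, at up to 31.3 in cattle, 20.4 in sheep and 27.3 in goats. Peaks with a fold of at least 20 numbered 5 and 6 in cattle B and C for H3K27ac, a share of 0.408% and 0.445% of the chromosome's peaks, against 0.110% and 0.104% on the other autosomes. For H3K4me3 they numbered 6 to 8, a share of 0.722% to 0.994%, against 0.294% to 0.350%. Sheep had 1, 0 and 0 such peaks of H3K27ac in animals A, B and C, with a share of 0.0831% in sheep A against 0.0216%. Sheep B and C had 0% against 0.0174% and 0.0130%. For H3K4me3 the sheep had 1, 0 and 0, with shares of 0.122%, 0% and 0% against 0.214%, 0.231% and 0.132%. Goats had 0 of H3K27ac in each library, against 0.00424% to 0.00767% elsewhere. They had 1, 2 and 2 of H3K4me3, with shares of 0.139%, 0.240% and 0.236% against 0.0395%, 0.264% and 0.195%. With so few peaks these shares were not tested.

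In sheep and goats the first regions by −log10 q lay at an end of the sequence, though they did not have the highest H3K4me3 fold. In sheep the leading region ran from 27205 to 28209 for H3K27ac, with a fold of 18.7 to 20.7, and from 26976 to 28305 for H3K4me3, with 11.98 to 15.5. In goats the 2 leading H3K27ac regions, from 81901970 to 81902390 and from 81903180 to 81903602, lay 1.89 and 0.67 kb before the last peak end, with folds of 16.004 to 18.5 and 13.5 to 13.8. The H3K4me3 region from 81903022 to 81903606 overlapped the second, with a fold of 15.6 to 17.995. With the goat sequence reversed, the sheep and goat regions lay at the same end of the chromosome. Away from the ends, the leading sheep H3K27ac regions ran from 79920832 to 79922116 (fold 9.15 to 10.3) and from 36571695 to 36573272 (5.69 to 6.38), and the leading sheep H3K4me3 regions from 30140074 to 30141388 (14.4 to 16.4) and from 79598143 to 79599385 (14.2 to 15.5). In goats they ran from 8797705 to 8798592 for H3K27ac (13.03 to 15.3), and from 35957787 to 35958932 (12.4 to 15.2) and from 37847898 to 37848821 (16.5 to 17.5) for H3K4me3. Each of the regions above also carried the other mark as a consensus region.

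The widest regions were a different set, of moderate strength. For H3K27ac they were 2556 bp in cattle (64367608 to 64370163, fold 3.50 to 5.13), 2412 bp in sheep (54682901 to 54685312, 4.14 to 4.97) and 2481 bp in goats (30401930 to 30404410, 3.38 to 5.16). For H3K4me3 they were 2469 bp in cattle (56179246 to 56181714, fold 5.51 to 10.6), 2904 bp in sheep (87136709 to 87139612, 5.27 to 5.52) and 3125 bp in goats (6832862 to 6835986, 4.58 to 5.60). The other mark was present at each of them too. Since no annotation of these builds was used here, it is not known which of the regions are at genes, and neither the receptor clusters nor APOA1 was assigned a peak or an empty stretch.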

How the data were processed

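ChIP-seq peak lists of 17 libraries were used. The authors trimmed reads with Trim Galore 0.4.0, mapped them with BWA 0.7.17 to ARS-UCD1.2, Oar_rambouillet_v1.0 or ARS1, removed reads of mapping quality 0 and duplicates (Picard 2.25.0), drew equal subsamples of reads from the paired-end libraries, and ran MACS2 2.1.1 for narrow peaks at q under 0.01. Reads from near-identical copies are lost by that filter, so an empty stretch says only that no peak was called there. Each deposited list gives a fold enrichment, a ratio to background, and −log10 p-values and q-values as well as a display score. Whether inputs served as background is not stated. The 9 inputs were not used here. The methods thus set the same read number for all ruminant libraries of both marks, without saying that the deposited lists are from these subsamples. The lists themselves hold no read numbers, so the depth behind a single peak is unknown and intervals based on it were not computed.

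Summit rows of the same interval were collapsed to a single peak, keeping the highest fold and −log10 q. Assembled autosomes were used (29, 26 and 29), and the mitochondrial sequence, X and unplaced sequences were left out. A library's peaks on chromosome 15 were compared with its own peaks on the other autosomes. Differences were averaged within species, then over the 3 species, and tested by exact sign flips over animals. Marks and species were compared by permuting labels. All tests were exact, and 17 p-values were adjusted together (Benjamini-Hochberg, threshold 0.05), of which 9 passed. The named regions are, per species and mark, the 3 consensus regions best placed in the library where they ranked poorest by −log10 q, and the widest; the 3 longest stretches; and the 3 bins with most enhancers and with most H3K4me3 regions. Fold values were compared within a library. Peaks were assigned to bins by their midpoint, and coordinates are 1-based. The members and lists were chosen with earlier results of these data known.

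The letter in the sample titles marks 1 liver, and thus pairs both marks of that animal. Over the 8 animals with both marks, the deviations of the log2 ratio from the group means had r = -0.55 between marks (Pearson, a description).

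Alternatives were a q of 1e-05, the 20000 strongest peaks, peaks within 500 bp joined, bins of 0.5 and 2 Mb, other overlap rules, other measures of length, and each animal left out. The consensus counts under these were added after seeing the data. So were the counts of stretches with the 20000 strongest peaks and with joined peaks. Python 3.11.15 was used with scipy 1.17.1, pandas 2.3.3, numpy 2.4.6 and matplotlib 3.10.9. The tests were tested on simulated data, and the overlaps of 30 pairs of sheep lists were checked with bedtools 2.31.1, with 0 differing.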

Additional observations from a re-analysis of the deposited data

Results flagged for a closer look

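The difference between marks in relative peak density on chromosome 15 was picked out because the chromosome's effect was not the same for both marks. The log2 ratio to the other autosomes was 0.069 higher for H3K27ac than for H3K4me3 (p = 0.00075, two-sided exact permutation test, adjusted p = 0.0128), and it was higher in 7 of the 8 animals with both marks. The species also differed in the relative density of H3K27ac (F = 55.8, p = 0.025, exact permutation test, adjusted p = 0.0472), with goats near 0 and cattle and sheep below it. They differed in that of H3K4me3 as well (F = 14.2, p = 0.00714, exact permutation test, adjusted p = 0.0221), with sheep lowest. Other autosomes also differed between marks and between species, so these differences are not shown to be particular to chromosome 15. By the methods, equal numbers of reads were drawn from the libraries of all 3 species, and the lists themselves give no read numbers. The span and completeness of the 3 assemblies cannot be told apart from the species.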

How the results depend on the processing

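The lists give no reads per peak, so peaks that were missed cannot be counted, and 2 or 3 animals per group limit the precision. Over 26 results, 330 alternative values were computed, and 274 kept their direction and their side of the threshold or, for counts, stayed within 1.5 times. All p-values are from exact permutation tests with Benjamini-Hochberg adjustment. The cause of a change was not tested, although each animal left out removes arrangements. Differences are chromosome 15 minus the other autosomes, or poor bins minus the rest. At a q of 1e-05 the log2 fold difference passed the threshold, at -0.022 for H3K27ac (adjusted p = 0.0221) and 0.026 for H3K4me3 (adjusted p = 0.0295, exact tests). The share of bins without H3K27ac then differed by 0.19 percentage points in place of -0.55, and there were 271 consensus enhancers for cattle, 261 for sheep and 421 for goats. With the 20000 strongest peaks, several results fell short of the threshold: the difference between marks at 0.019, the H3K27ac-only difference at 0.31 points, the H3K4me3 width difference at 0.040 (adjusted p = 0.0531), recurrence in poor bins at -13.7 points for H3K27ac (adjusted p = 0.0531) and -5.56 for H3K4me3 (adjusted p = 0.114, exact tests), and F between species at 5.72 for H3K27ac and 2.20 for H3K4me3. The H3K4me3 fold difference, 0.028, passed there (adjusted p = 0.0443, exact test). The same peaks turned the sign of 4 values short of the threshold in either case, which were H3K4me3 peaks covered by H3K27ac (0.39 points), recurrence of H3K27ac (0.22) and H3K4me3 (0.082), and H3K27ac fold (0.00091). They gave 115, 136 and 145 enhancers in cattle, sheep and goats, and 410 goat promoters. With neighbouring peaks joined, H3K4me3 coverage turned to 0.84 points (adjusted p = 0.0266), H3K4me3 recurrence turned to 0.080 points, and the H3K4me3 width difference was 0.0068 (adjusted p = 0.846, exact tests). Over occupied bins, H3K27ac density differed by -0.041 (adjusted p = 0.288) and F between species was 147 for H3K27ac (adjusted p = 0.0531, exact tests). For summed peak length, F for H3K4me3 was 42.5 (adjusted p = 0.054, exact test).

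Leaving out 1 animal at a time, H3K27ac density ran from -0.078 to -0.073 and lost its call in 7 of 9 cases. F between species ran from 36.7 to 61.5 for H3K27ac, lost in 7, and from 9.02 to 28.1 for H3K4me3, lost in 4. The H3K27ac-only difference ran from 2.35 to 2.49 points and was lost in 1. H3K27ac fold ran from -0.019 to -0.014 and passed without cattle C (adjusted p = 0.0365, exact test). Signs turned for H3K4me3 coverage (-0.39 to 0.16 points) and for recurrence of H3K27ac (-0.54 to 0.083) and H3K4me3 (-0.31 to 0.23), none past the threshold. Sheep enhancers ran from 301 to 462, the lowest without sheep C. Without cattle B or C, H3K27ac recurrence and both results on poor bins had no value. Paired by animal, with the replicate block, the difference between marks was 0.070 (p = 0.0156, exact sign-flip test), higher in 7 of 8 animals, and its call did not change.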
